A study of Mus musculus with 34 samples.

Results

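Livers of transgenic mice that overexpress Pdgf-c were compared here with wild-type livers at week 20, the age at which hepatic fibrosis was examined in this study. The comparison holds 10 of the 34 arrays of the series: the 5 livers titled 20w PDGFC and the 5 titled 20w WT, chosen by their titles alone. The transgenic mice carry the Pdgf-c transgene (strain label Pdgf-c Tg) and the wild-type mice are non-transgenic C57/B6 animals. Per the series' design, both were weaned at week 4 and ate a basal diet, with no peretinoin. Each sample is total liver RNA on 1 Affymetrix Mouse Genome 430 2.0 array, whose deposited value is a MAS5 signal on a linear scale. The labels give neither the sex, the litter, the promoter that drives the transgene nor whether the wild-type mice were littermates. They do not say whether a replicate is 1 mouse, so the p-values rest on a spread between samples and not on a known spread between mice. That spread was estimated within the 7 groups of all 34 arrays, not from these 10 arrays alone.

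PDGF-C is a secreted growth factor that is released from its inactive form by proteolysis and acts on the PDGF alpha receptor, and through receptor heterodimers on the beta receptor. In liver these receptors sit on mesenchymal cells: stellate cells, which store vitamin A around the sinusoids, portal fibroblasts, and the myofibroblasts that both can become. Myofibroblasts lay down fibrillar collagen, the scar of hepatic fibrosis, while liver-resident macrophages (Kupffer cells), recruited monocytes, sinusoidal endothelium and hepatocytes change around them. In whole-liver RNA, more or fewer cells of a type and more or less RNA per cell cannot be told apart.

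The arrays of the groups were not alike in every technical measure. Median signals overlapped but tended to be higher on transgenic arrays, at 82.6 to 95.5, against 71.6 to 88.0 on wild-type arrays. The Actb ratio between its 3' and 5' control probe sets, a sign of RNA integrity and labelling, was 1.62 to 1.74 on transgenic arrays and 1.81 to 2.16 on wild-type arrays, without overlap, and its part in the results was not tested. The first principal component of the 10 arrays held 43.0% of the variance and separated all transgenic from all wild-type livers. Transgenic replicate 5 carried transcripts of the exocrine pancreas: Cpa1 (carboxypeptidase A1) gave 2.3, 3.1, 2.1, 5.8 and 2458 in transgenic replicates 1 to 5, against 5.0, 5.5, 7.8, 7.9 and 3.5 in wild-type replicates. The same liver had a mean log2 signal of 11.28 over 5 acinar genes, against 6.12 to 7.06 in all other livers of both groups, and the count of all called genes is also given without it. The Y-linked Eif2s3y ran from 1671 to 2364 in transgenic and from 1812 to 2616 in wild-type livers, and Xist, the transcript of the inactive X chromosome, from 64.9 to 101 and from 63.5 to 108, near the array medians in both groups. Alb, the albumin of hepatocytes, was bright in every liver, at 21729 to 30239.8 in transgenic and 28716 to 40049 in wild-type livers, and fell by 0.37 ± 0.12 (adjusted p = 0.0193, not called in 4 of the 10 fits that left out 1 array, and -0.05 without a call after quantile normalisation).

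The PDGF receptors rose, and Pdgfc, the gene of the transgene, did not pass the test. Changes are given as the difference of mean log2(signal + 16) between transgenic and wild-type livers with its moderated standard error, and a gene rose or fell where limma gave a Benjamini-Hochberg adjusted p under 0.05 over all genes measured. Pdgfc gave 386, 376, 321, 284 and 210.0 in transgenic livers, against 362, 259, 317, 332 and 412 in wild-type livers, and the groups overlapped (log2 change -0.10 ± 0.20, adjusted p = 0.757, with 0.23 on its other kept probe set). The sources used here do not say if either one reads the transgene's RNA, and these values are therefore no check of the genotype labels. Pdgfra, the receptor that PDGF-C binds, gave 4857, 3604, 4398, 4257 and 3606 in transgenic livers, against 258, 408, 109, 168 and 131 in wild-type livers. Pdgfrb, the beta receptor, gave 2958, 2172, 2486, 2815 and 2623 in transgenic livers, against 339, 355, 118, 143 and 329.9 in wild-type livers (log2 change 3.39 ± 0.23, adjusted p = 2.07e-12). Neither receptor's groups came near each other. The ligand Pdgfd rose by 1.38 ± 0.19 and Pdgfb by 0.98 ± 0.22. Pdgfa, a further ligand of the alpha receptor, rose by 0.67 on the probe set used and had a change of -0.09 on the other.

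Transgenic livers differed from wild-type livers in a large share of the genes measured, with most of the large changes upward. Of 13099 genes, 3102 (23.7%) passed the test. Of all genes, 15.8% rose and 7.87% fell, and these are the shares against which the gene groups below are read. Changes of 2-fold or more were seen in 949 of the genes that passed (7.24% of all), as 833 rises (6.36%) and 116 falls (0.886%). Changes of 4-fold or more were 169 rises and 21 falls, and changes of 8-fold or more 43 rises and 9 falls. The 5 and 5 signals did not overlap in 2115 genes (16.1%). The median log2 change of all genes was 0.06, and centring each array on its median moved it to -0.07 and turned the split to 1419 rises and 1619 falls. Gene groups are therefore given under the other scalings as well where a count of 4 or more calls moved by over 1.5 times. Smaller counts that moved, and medians that turned, are so given only in part. Without transgenic replicate 5, 1905 genes rose and 990 fell, against 2071 and 1031 with it.

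**Figure D1:**
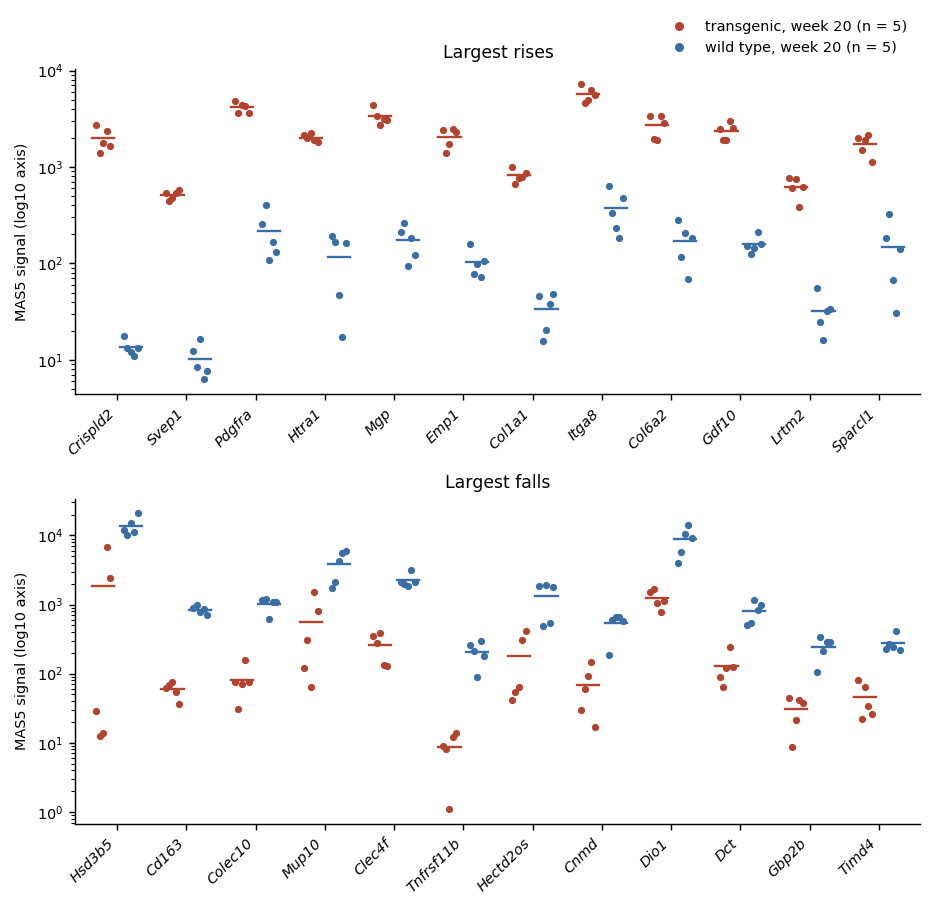
Signals (log10 axis, MAS5 units) of the 12 largest rises (upper panel) and the 12 largest falls (lower panel) that passed the test without any overlap between the groups. Each point is 1 liver, transgenic to the left of wild type within a gene, and bars mark the group means. The lowest transgenic signal of Crispld2 is 1407 and the highest wild-type one 17.7, and the transgenic signals of Hsd3b5 run from 12.5 to 6824.

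The largest rise was that of Crispld2, a secreted protein with cysteine-rich and LCCL domains. Its signals were 2726, 1407, 1779, 2336 and 1643 in transgenic livers, against 17.7, 13.4, 12.1, 10.9 and 13.4 in wild-type livers, where it lay far under the array medians (log2 change 6.04 ± 0.30, limma adjusted p = 1.6e-15, 7.07 with an offset of 1 and 4.68 with 64 in place of 16). Svep1, a large extracellular adhesion protein, gave 534, 449, 478, 533 and 572 in transgenic livers, against 12.5, 8.5, 16.4, 6.3 and 7.6 in wild-type livers, and every transgenic value was many times the highest wild-type one. Htra1, a secreted serine protease, gave 2146, 1998, 2227, 1886 and 1832 in transgenic livers, against 194, 167, 46.7, 17.3 and 165 in wild-type livers (log2 change 4.24 ± 0.42). The wild-type Htra1 signals themselves spread widely, whereas the transgenic ones lay close together. Mgp (matrix Gla protein, an inhibitor of calcification) rose by 4.21 ± 0.35 and Itga8, the integrin alpha 8 chain of mesenchymal cells, by 4.00 ± 0.27. Gdf10, a TGF-beta family ligand also called BMP3b, gave 2460.0, 1887, 1890.1, 3020.4 and 2529 in transgenic livers, against 154, 125, 146, 214 and 159.5 in wild-type livers. Lrtm2, a leucine-rich membrane protein, rose by 3.74 ± 0.40 and Sparcl1 (hevin, a matricellular protein) by 3.69 ± 0.36. Emp1, an epithelial membrane protein, rose by 4.14 ± 0.27 on the probe set used, while its other kept probe set had a change of -0.06.

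Among the falls that did not overlap, the largest after Hsd3b5 were those of Cd163 and Colec10. Colec10, a collectin (collagen-like lectin) that stellate cells secrete in mouse liver, gave 76.6, 31.0, 70.8, 155 and 74.4 in transgenic livers, against 1165, 1222, 609, 1087 and 1092 in wild-type livers (log2 change -3.51 ± 0.45, adjusted p = 4.99e-07). It was lower in all 5 transgenic livers than in any wild-type liver. Tnfrsf11b, which encodes osteoprotegerin, a decoy receptor for RANKL, gave 9.0, 8.0, 1.1, 12 and 13.7 in transgenic livers, against 256, 210.3, 88.7, 301 and 180.0 in wild-type livers. Dio1, the deiodinase that activates thyroid hormone in liver, gave 1529, 1664, 1048, 790.1 and 1135 in transgenic livers, against 3961, 5686, 10647, 14283 and 9318 in wild-type livers (log2 change -2.72 ± 0.47). The transgenic values of Tnfrsf11b lay far below the array medians, and those of Dio1 were still bright. Cnmd, which encodes chondromodulin, fell by 2.81, Dct (dopachrome tautomerase) by 2.56, the guanylate-binding protein gene Gbp2b by 2.47 and the noncoding RNA gene Hectd2os by 3.06 on the log2 scale. Mup10, a major urinary protein of mouse liver, fell by 3.36 ± 0.59, with signals of 121, 311, 63.9, 1524 and 808 in transgenic livers, against 1749.7, 2085, 4271, 5633 and 5858 in wild-type livers.

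Collagen genes rose, but not every chain did. Of 7 measured fibrillar chains 5 rose, of 13 nonfibrillar chains 7 rose, and none of either fell. Col1a1 (type I) gave 998, 670.5, 766, 793 and 863 in transgenic livers, against 46.0, 15.8, 20.6, 38.4 and 48.6 in wild-type livers, and Col3a1 (type III) gave 7371, 6457, 6519.6, 6861 and 7701 in transgenic livers, against 1485, 1283, 576, 728 and 944 in wild-type livers. Col1a1 lay under the array medians in wild type, whereas Col3a1 lay above them, so the fold of Col1a1 rests more on the offset (log2 4.11, and 3.17 with an offset of 64). It also depends on the probe set, since the other kept probe set of Col1a1 had a change of 0.76. Col1a2 rose by 2.59 (4.09 on its other kept probe set), Col5a2 by 2.61 and Col5a1 by 1.61. Col5a3 (-0.08) and Col27a1 (0.08) did not pass the test. The chains of type VI collagen, which forms beaded microfilaments, rose by 3.68 (Col6a1), 3.94 (Col6a2) and 3.50 (Col6a3). Col8a2, Col14a1, Col15a1 and Col16a1 rose by 1.94, 1.49, 1.13 and 0.85. Col18a1, a collagen of hepatocytes and basement membranes, had a change of 0.20 and Col12a1 one of -0.14, neither of which passed.

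To show regulatory sequence of collagen genes that rose together, the windows of 250 bases before to 50 after the annotated start of Col1a2 (chr6:4505368-4505667, plus strand, matches in capitals for CCAAT on either strand) and Col3a1 (chr1:45311288-45311587, plus strand, TATAAA in capitals, its first base at position -117 from the start) are given 5′ to 3′ from RefSeq on GRCm38.p6.
Col1a2: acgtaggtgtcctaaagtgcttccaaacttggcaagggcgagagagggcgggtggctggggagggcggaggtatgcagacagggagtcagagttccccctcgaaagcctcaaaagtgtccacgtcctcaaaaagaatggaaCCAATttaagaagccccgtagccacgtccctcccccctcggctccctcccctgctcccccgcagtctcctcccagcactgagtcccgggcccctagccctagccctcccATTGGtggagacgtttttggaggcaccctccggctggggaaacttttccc
Col3a1: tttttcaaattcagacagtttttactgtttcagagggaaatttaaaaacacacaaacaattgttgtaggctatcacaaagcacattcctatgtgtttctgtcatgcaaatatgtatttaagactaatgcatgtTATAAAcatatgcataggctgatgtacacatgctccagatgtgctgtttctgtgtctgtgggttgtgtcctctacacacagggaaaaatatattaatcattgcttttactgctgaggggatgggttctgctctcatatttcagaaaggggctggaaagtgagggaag
CCAAT is the box bound by the factor NF-Y and TATAAA the core of the TATA box. Both strands were searched for both motifs, which do not overlap each other. CCAAT was found in 2 of the 5 fibrillar collagen windows in the table, against 38.2% of the 10565 windows of tested genes, and TATAAA in 1, against 8.01%. A match is a description of these letters and not of a factor's binding.

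Around the fibrils, the other matrix families rose in most of their measured members. Basement membrane genes rose in 11 of 20 cases and fell in 1. The type IV chains Col4a1, Col4a2, Col4a3, Col4a4 and Col4a5 rose by 2.31, 2.10, 1.55, 3.15 and 2.42, and the linker Nid1 (nidogen) by 2.53. Laminin chains parted: Lama2, the chain of mesenchymal and muscle basement membranes, rose by 3.29 ± 0.32, whereas Lama1, the chain of embryonic basement membranes, fell by 1.18 ± 0.37 (not called without transgenic replicate 2 or wild-type replicate 5), and Hspg2 (perlecan) had a change of 0.04. Small leucine-rich proteoglycans, which coat collagen fibrils, rose in 7 of 8 cases, among them Lum (lumican) by 3.41, Bgn (biglycan) by 3.04 and Ogn (osteoglycin) by 2.98. Dcn (decorin), which was already bright in wild type, rose by 1.24, with signals of 13936, 15177, 16907, 13492 and 12517 in transgenic livers, against 6518, 8945, 2942, 7293 and 6520.1 in wild-type livers. Elastic fibre and microfibril genes rose in 10 of 12 cases, led by Fbln5 (fibulin 5) at 3.16 ± 0.25 and Emilin1 at 2.39 ± 0.22, with Eln itself (elastin) at 1.45. Matricellular genes rose in 9 of 14 cases: Smoc2 by 3.31, Tnxb (tenascin X) by 2.68, Thbs2 by 2.10 and Ccn2, the profibrotic connective tissue growth factor, by 1.82. Postn (periostin) was the only matricellular gene to fall: its signals were 206, 244, 141, 191 and 147 in transgenic livers, against 558, 925, 231, 430.1 and 526 in wild-type livers. Wild-type replicate 3 alone overlapped the transgenic values. Fn1, the fibronectin that hepatocytes also secrete into plasma, had signals of 11826 to 14321 in transgenic and 9620.2 to 15589 in wild-type livers and did not pass (adjusted p = 0.872).

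**Figure D2:**
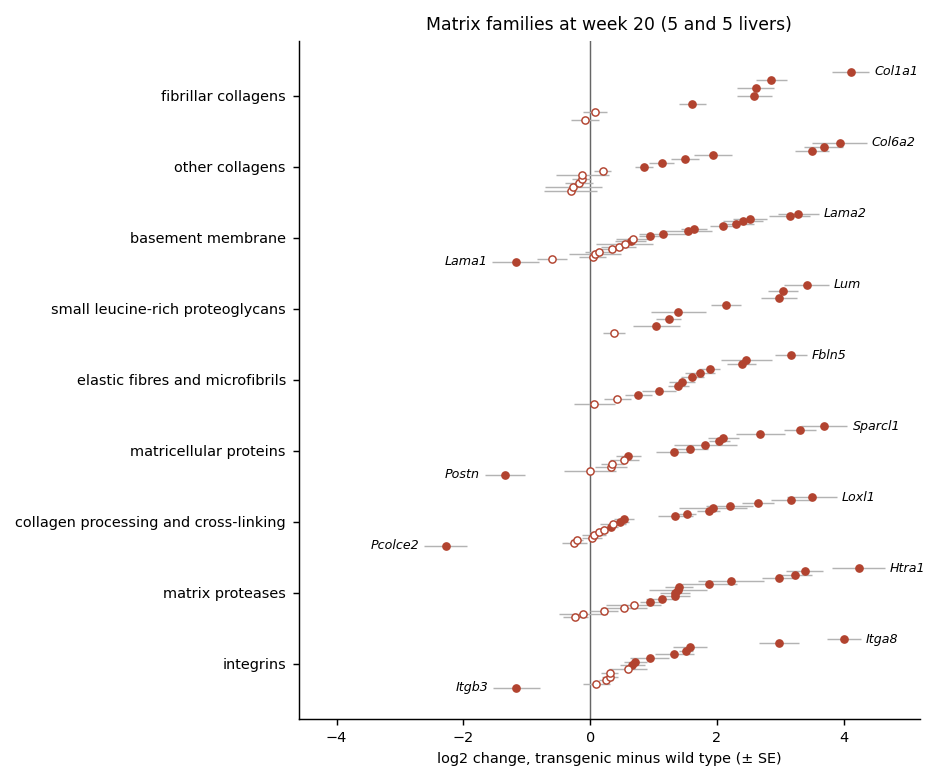
Log2 change (transgenic minus wild type, ± moderated SE, 5 and 5 livers) of each measured gene in 9 families of matrix, its enzymes and its receptors. Filled points passed the test and open points did not. Most points lie right of 0, with Pcolce2, Postn, Lama1 and Itgb3 as the filled points to its left.

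Enzymes that mature, cross-link and cut the matrix changed unevenly. Of 19 genes of collagen processing 11 rose and 1 fell. Loxl1, a lysyl oxidase of elastic fibres, rose by 3.50 ± 0.39, Plod2, the lysyl hydroxylase of fibrotic cross-links, by 3.17 ± 0.31 and the prolyl 3-hydroxylase gene P3h3 by 2.65 ± 0.25. Pcolce and Pcolce2, paralogous enhancers of procollagen C-proteinase, moved apart: Pcolce rose by 1.87 ± 0.19, and Pcolce2 gave 31.3, 28.5, 19.6, 3.2 and 2.6 in transgenic livers, against 124, 113, 126, 162 and 141 in wild-type livers. The prolyl 4-hydroxylase genes P4ha1 (0.36) and P4ha2 (0.03) did not pass. Of 17 matrix proteases 12 rose and none fell. Adamts5 (an aggrecanase) rose by 3.23, Mmp2 (gelatinase A) by 3.38, Plat (tissue plasminogen activator) by 2.98, the macrophage elastase gene Mmp12 by 2.22 and the collagenase gene Mmp13 by 1.88, whereas Mmp9 (gelatinase B) had a change of -0.11 and did not pass. Their inhibitors Timp2 and Timp3 rose by 2.57 and 2.33. Timp1, the inhibitor most often read in fibrotic liver, gave 159, 138, 89.3, 174 and 188 in transgenic livers, against 33.8, 58.3, 57.1, 27.8 and 64.8 in wild-type livers, a smaller rise at low signal (log2 1.37 ± 0.31, adjusted p = 0.00133). Of 14 integrin chains 8 rose, among them Itgb8 (2.98), Itga6 (1.57) and Itgb5 (1.51), and Itgb3, the beta chain of platelets and osteoclasts, fell by 1.16 (not called without transgenic replicate 1 or 2 or wild-type replicate 2). Itgb1, the beta chain of most collagen and laminin receptors, had a change of 0.25 and did not pass.

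Signals that act on mesenchymal cells moved in several families. Of 30 TGF-beta and BMP genes 18 rose and 1 fell. Among the ligands, Tgfb3 rose by 3.0 ± 0.37, Bmp4 by 1.28 and Tgfb1 by 1.04, the last with signals of 504, 461, 521, 326 and 392 in transgenic livers, against 195, 159.7, 177, 297 and 208 in wild-type livers. Bmp2, a ligand that sinusoidal endothelium makes, fell by 1.27 ± 0.28. The receptors Tgfbr1, Tgfbr2 and Tgfbr3 rose by 0.68, 1.20 and 1.23, and the inhibitors Bambi, Smad6 and Smad7 by 1.70, 1.01 and 0.98, while the signal transducer genes Smad2 (-0.07) and Smad4 (0.07) did not pass. The other kept probe set of Smad7 had a change of 0.025. Of 24 Wnt pathway genes 7 rose and none fell. They included the secreted proteins Frzb (2.92 ± 0.29), Dkk3 (2.15 ± 0.18) and Sfrp1 (1.25 ± 0.34) and the ligand Wnt4 (1.37). Of 13 Notch genes 7 rose (4 after quantile normalisation and 4 without wild-type replicate 3), with Notch4 at 1.45 and Notch3 at 1.42, and of 8 hedgehog genes 3 rose, with the co-receptor Boc at 1.35. The growth factor Hgf had a change of 0.72 ± 0.30 and did not pass (adjusted p = 0.0777), although its signals, 304 to 411 in transgenic and 107 to 274 in wild-type livers, did not overlap, and it passed in a fit of the 10 arrays alone (adjusted p = 0.0288). Nfkb2 and Relb, subunits of the noncanonical NF-kB pathway, rose by 2.11 ± 0.34 and 0.97 ± 0.28. The inflammatory cytokine gene Il1b (0.00) did not pass.

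Markers of mesenchymal cell types did not move as a block. Portal and adventitial fibroblast genes rose in 7 of 8 cases, with Gsn (gelsolin) at 3.27, Dpt (dermatopontin) at 2.23 and Thy1 at 1.12. Entpd2 had the smallest change of the list (0.41). The list shares Thy1 with T cells, Cd34 with vascular endothelium and Eln with elastic fibres, so its count is not particular to these fibroblasts. The 5 kept probe sets of Gsn had changes from 0.19 to 3.40. Of 12 genes of activated myofibroblasts 7 rose, with Vim (vimentin) at 2.14 and Tagln at 1.58. Acta2, the smooth muscle actin that defines myofibroblasts in tissue sections, gave 774, 878, 794, 917 and 1084 in transgenic livers, against 626, 719.5, 456, 546 and 649.6 in wild-type livers. Its groups did not overlap, but its log2 change of 0.56 ± 0.32 did not pass in the fit of all groups (adjusted p = 0.207) and did in a fit of the 10 arrays alone (adjusted p = 0.0122). Of 14 stellate cell genes 4 rose and 2 fell: Cygb (cytoglobin) rose by 2.61, the transcription factor gene Hand2 by 2.38 and Reln (reelin) by 1.37. Colec10, given above, fell by 3.51, and Angptl6 had a change of -1.485. The mean log2 signals of the list overlapped, at 8.53 to 9.1 in transgenic and 7.9 to 8.84 in wild-type livers. Lrat, which stores vitamin A as its ester in stellate cells, gave 711, 534, 835, 1389.7 and 1174 in transgenic livers, against 834, 758, 319, 688 and 719 in wild-type livers, with overlap and no call. Abcc9 and Kcnj8, subunits of the potassium channel of mural cells, rose by 2.10 and 1.61, whereas the smooth muscle myosin gene Myh11 had a change of 0.12 and did not pass. Of 22 actin cytoskeleton and annexin genes 14 rose, among them Tmsb10 (1.81), Flna (1.76) and Anxa2 (1.67), and Actb had a change of -0.21. Marker lists of tissues next to liver held few calls. Mesothelium had 1 of 7 genes higher (Wt1, 2.17), a median change of 0.52 and mean log2 signals of 6.76 to 7.86 in transgenic and 5.71 to 6.71 in wild-type livers, which did not overlap. Of 4 adipocyte genes 1 rose (Fabp4, 1.46), with a median of 0.54 and mean log2 signals of 6.80 to 8.37 in transgenic and 6.43 to 8.47 in wild-type livers. The 5 pancreatic acinar genes had a median of 0.66, which turned to -0.42 without transgenic replicate 5, and the 8 skeletal muscle genes one of -0.13, with no call in either list. The part of such tissue in the results was not tested.

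Some Kupffer cell markers fell while most of those of recruited monocytes rose. Of 15 Kupffer cell genes 6 fell and none rose. Cd163, the haemoglobin scavenger receptor, gave 62.3, 68.2, 76.1, 54.0 and 36.1 in transgenic livers, against 898, 983, 771, 854 and 708 in wild-type livers, and Clec4f, a lectin found only on Kupffer cells in the mouse, gave 352, 282, 391, 134 and 129.7 in transgenic livers, against 2109, 2008, 1884, 3167 and 2133 in wild-type livers. Every transgenic value lay below every wild-type value for both. The phosphatidylserine receptor gene Timd4, the folate receptor gene Folr2 and Cd5l, a secreted scavenger protein, fell by 2.29, 2.28 and 1.91, and Clec1b by 1.34 (not called without transgenic replicate 4 or 5). Adgre1 (F4/80) and Csf1r, which all macrophages share, had changes of 0.10 and -0.02 and did not pass. Nor did the other members of the list: Marco (-1.146), Vsig4 (-1.145), Slc40a1 (-0.285), Nr1h3 (-0.227), Il18bp (-0.045), Cd209f (0.055) and Id3 (0.149). Of 17 genes of recruited monocytes and scar macrophages 12 rose. Cx3cr1, the fractalkine receptor of monocytes, gave 642, 536, 823, 747 and 613 in transgenic livers, against 116, 74.4, 34.3, 52.4 and 26.1 in wild-type livers. Its ligand Cx3cl1 was the chemokine with the largest rise (2.51 ± 0.22). Ccr2, the receptor that brings monocytes out of the marrow, rose by 1.67, Itgax by 1.91, Trem2 by 1.63 and Gpnmb by 2.95. Without transgenic replicate 5 the counts were 5 lower among Kupffer genes and 12 higher among monocyte genes.

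Other leukocyte genes were more mixed. Of 11 genes of antigen presentation and dendritic cells 7 rose, including H2-Eb1 (2.11 ± 0.21), H2-Ab1 (1.85 ± 0.20) and the invariant chain gene Cd74 (2.12 ± 0.26). Of 11 T and NK cell genes 6 rose, among them Cd3d by 2.35 and Gzmb by 1.64, and Cd8a (-0.19) did not pass. The chemokines Ccl5, Cxcl12 and Cxcl16 rose by 1.97, 1.08 and 0.96, Ccl24, an eosinophil chemokine, fell by 1.27 (not called in 7 of the 10 fits that left out 1 array), and Ccl2, which draws monocytes, had a change of 0.00. In all, 4 of 16 chemokines rose and 1 fell. Of 8 neutrophil genes 1 rose (Ngp, a granule protein, 2.06 ± 0.72, not called in 4 of the 10 fits that left out 1 array). The median change of this list was 1.18, and 4 of its genes rose in a fit of the 10 arrays alone, but none after quantile normalisation. Interferon response genes rose in 3 and fell in 2 of 15 cases (1 and 1 after quantile normalisation, 1 higher without wild-type replicate 3 and 1 lower without transgenic replicate 2 or wild-type replicate 5), with the GTPase gene Gbp2 at 1.55 ± 0.32. Of 10 B and plasma cell genes 2 rose and 1 fell, with Cd79b of the B cell receptor at 0.84 ± 0.25, but neither rise was called after median centring or quantile normalisation, and 1 rose in 8 of the 10 fits that left out 1 array.

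Endothelial markers split between sinusoidal and vascular genes. Of 17 vascular genes 7 rose and none fell. Cd34, an antigen of capillary endothelium that is scarce in normal sinusoids and is also carried by portal fibroblasts, gave 1023, 976, 939, 982 and 997 in transgenic livers, against 80.0, 96.0, 28.4, 101 and 52.7 in wild-type livers. The 5 transgenic values lay within a narrow band far above the wild-type ones. Aplnr (apelin receptor) rose by 2.34, Ednrb (endothelin receptor B) by 2.05 and Emcn (endomucin) by 1.01, while Pecam1 (0.46) and Cdh5 (0.27) did not pass. The other kept probe set of Aplnr had a change of 0.18. Of 15 sinusoidal genes 2 rose (Stab1, 0.57, and Gata4, 0.52, calls that were lost in 3 and 4 of the 10 fits that left out 1 array and after either rescaling) and 3 fell (Clec4g, F8 and Bmp2). Clec4g, a lectin of sinusoidal endothelium, gave 794, 788, 871, 572 and 799 in transgenic livers, against 2958, 2265, 2242, 3982 and 3208 in wild-type livers, and coagulation factor VIII (F8) fell by 1.06. Stab2 (0.16) and Lyve1 (0.61), scavenger receptors of the same cells, did not pass. Flt1, a VEGF receptor, rose by 1.56 and Vegfc by 1.06, and Vegfa had a change of 0.13. Over their kept probe sets the changes ran from 0.115 to 2.29 for Flt1 and from 0.25 to 1.35 for Vegfc.

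Genes of duct cells and dividing cells showed few calls. Of 10 bile duct genes only Cd24a rose (1.47 ± 0.36), and Krt19 (0.49) and Sox9 (-0.12) did not pass. After quantile normalisation 2 bile duct genes rose and 1 fell. None of 16 mitosis genes was called. Mki67 gave 126, 87.2, 74.9, 64.6 and 230.4 in transgenic livers, against 115, 94.4, 92.5, 47.1 and 44.3 in wild-type livers, with transgenic replicate 5 above all others. Of 18 replication genes 2 rose: Mcm2, a helicase subunit (1.14), and the licensing factor gene Cdt1 (0.66, not called in 7 of the 10 fits that left out 1 array). Mcm2 had a change of 0.13 on its other kept probe set. After quantile normalisation 1 replication gene rose and 3 fell. Regulators of G1 rose in 7 of 19 cases (3 after median centring and 4 without transgenic replicate 2): cyclin D2 (Ccnd2) by 1.38, and the CDK inhibitors Cdkn1a (p21) and Cdkn2c by 1.79 and 0.90. Cyclin D1 (Ccnd1) rose by 0.93 and Cdkn2b by 0.88, calls that were lost in 7 and 7 of the 10 fits that left out 1 array. Cdkn1a gave 878, 1074, 478, 437 and 558 in transgenic livers, against 372, 95.6, 80.2, 323 and 162 in wild-type livers, and every transgenic value was above every wild-type one. Immediate early genes rose in 9 of 14 cases (5 without wild-type replicate 5), among them Klf6 (2.30 ± 0.25) and Jun (1.24 ± 0.33). Markers of fetal liver and of liver tumours rose in 8 of 14 cases. Tff3, a trefoil peptide, gave 3430.1, 3084, 3485, 6998 and 6262 in transgenic livers, against 1229, 740.4, 1432, 230.3 and 247 in wild-type livers, Ly6d rose by 2.06 and the pancreatic trypsin inhibitor gene Spink1 by 1.97 (1.69 without transgenic replicate 5). Afp, the fetal albumin, rose by 1.08 with overlapping groups and no call in 6 of the 10 fits that left out 1 array, at 164 to 520.5 in transgenic and 70.0 to 329 in wild-type livers.

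Hepatocyte functions fell in part, and apart from the sex-biased genes the list medians were small, the lowest being -0.42 (P450 enzymes). Single genes fell further, among them Dio1 (by 2.72) and Me1 (by 1.26). Of 12 male-biased liver genes 9 fell. Hsd3b5, a steroid dehydrogenase of male mouse liver, gave 28.8, 12.5, 14.0, 6824 and 2441 in transgenic livers, against 12010.3, 10139.8, 15184, 11209.8 and 20919 in wild-type livers. All transgenic values were lower than the wild-type ones, but replicates 4 and 5 lay far above replicates 1 to 3. The log2 change of -5.87 ± 1.16 ran from -7.09 to -5.11 when 1 array was left out. Elovl3, a fatty acid elongase, gave 98.7, 344, 65.7, 2069 and 2662 in transgenic livers, against 14819, 1533, 5943, 2789 and 11888 in wild-type livers, with transgenic replicates 1 to 3 lowest again (log2 change -3.58, and -4.22 to -2.96 when 1 array was left out). The female-biased Cyp2b9 gave 1642, 352, 3647, 67.6 and 72.7 in transgenic livers, against 45.4, 46.8, 49.5, 84.8 and 61.0 in wild-type livers, and here replicates 1 to 3 were high while replicates 4 and 5 lay in the wild-type range. Its log2 change of 2.61 ± 0.89 ran from 1.84 to 3.21 when 1 array was left out and was not called without transgenic replicate 1 or 3 or wild-type replicate 1 or 3. Fmo2, a flavin monooxygenase, gave 3829, 3779.5, 3422, 1074 and 688 in transgenic livers, against 301, 710.1, 295, 517 and 254 in wild-type livers, again highest in replicates 1 to 3. Cyp17a1, a steroid hydroxylase of the female-biased list, rose by 1.85 ± 0.41 without overlap. Of 8 female-biased genes 4 rose and none fell, with 2 higher without transgenic replicate 1 or 3 and 1 lower after either rescaling or without wild-type replicate 5. The Y-linked and Xist signals given above did not separate these livers. Of 15 genes of the growth hormone axis, which sets sex-biased expression in liver, 3 fell, 1 rose and 11 were not called. After median centring 6 of them fell and after quantile normalisation 5, and the median change was -0.20 as reported. Ghr (growth hormone receptor) fell by 0.71 ± 0.12, Lifr by 1.10 ± 0.26 and Igfals by 0.52 ± 0.14, and Stat5b (0.06) did not pass. Lepr, the leptin receptor, rose by 2.52, with 2815, 646, 939.9, 483 and 178 in transgenic livers, against 145, 294, 109, 51.5 and 51.2 in wild-type livers.

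**Figure D3:**
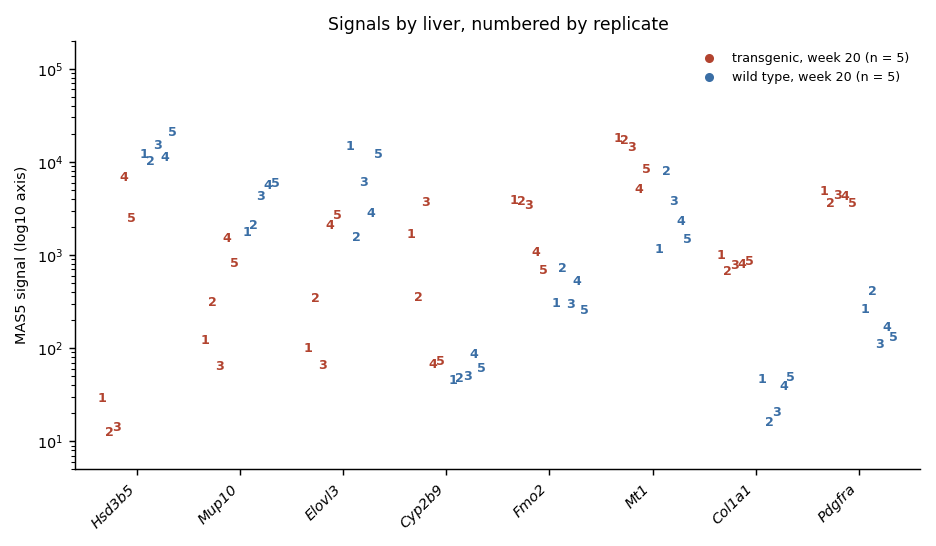
Signals (log10 axis, MAS5 units) of 8 genes in the livers of both groups, with points numbered by replicate and transgenic to the left of wild type. Hsd3b5, Mup10 and Elovl3 are lowest, and Cyp2b9, Fmo2 and Mt1 highest, in transgenic replicates 1 to 3, while Col1a1 and Pdgfra are alike in all 5 transgenic livers.

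P450 enzymes of drug and lipid metabolism fell in 12 of 21 cases (7 after quantile normalisation) and rose in 1 (Cyp2b9). Cyp1a2 fell by 1.13, Cyp2c29 by 0.81, Cyp4v3 by 0.70 and Cyp2j5 by 0.71, all without overlap between groups, whereas Cyp2b10 (0.02) and Cyp3a13 (-0.12) did not pass. Of 18 bile acid genes 7 fell (4 after quantile normalisation) and 1 rose. Cyp7a1, the rate-limiting enzyme of the classic pathway, had signals of 2285 to 5996 in transgenic and 3926 to 6764 in wild-type livers and a change of -0.11 ± 0.35, which did not pass. Cyp7b1 and Cyp27a1 of the alternative pathway fell by 1.98 and 0.63, Hsd3b7 by 0.87 and the uptake carrier Slco1a1 by 2.29, and the carrier Slco1a4 rose by 1.29. Conjugating enzymes and NRF2 targets had 8 lower and 3 higher of 25 (5 lower after quantile normalisation, without transgenic replicate 1 or without wild-type replicate 4), with the glucuronosyltransferase gene Ugt2b1 lower by 0.83 and Gsta3 by 0.67, and Nqo1 at -0.06. The metallothioneins, zinc and copper binding proteins, rose. Mt1 gave 17796, 16813, 14404, 5116 and 8235 in transgenic livers, against 1145, 7805, 3770.3, 2312 and 1468 in wild-type livers, and wild-type replicate 2 lay within the transgenic range. Mt2 rose by 2.26 ± 0.61, and Heph (hephaestin, a ferroxidase of iron export) by 2.34 ± 0.23. Of 18 genes of vitamin A metabolism 3 rose and 2 fell (1 after quantile normalisation or without transgenic replicate 1 or wild-type replicate 5). The retinaldehyde dehydrogenase gene Aldh1a2 and the receptor gene Rarb rose by 1.56 and 0.92, and Aldh1a1 fell by 0.67.

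Genes of lipid and sugar metabolism were called in both directions. Of 20 lipogenic genes 4 fell, among them Me1 (malic enzyme) by 1.26, the desaturase gene Scd2 rose by 2.12, and Fasn (-0.44) and Srebf1 (-0.34) did not pass. Of 16 genes of fatty acid oxidation 4 fell (2 after quantile normalisation), with Slc25a20, the carnitine carrier, lower by 0.67, and the list median of -0.14 turned to 0.04 under that scaling. Insig1 fell by 0.72, and 2 of 14 cholesterol synthesis genes fell in all (1 after quantile normalisation and 4 without wild-type replicate 2). Of 17 genes of lipid droplets and fatty acid uptake 3 rose and 3 fell, but none fell after quantile normalisation. Lpl, the lipoprotein lipase, rose by 1.85 and Fabp4 by 1.46, while Plin2, the main coat protein of lipid droplets, fell by 0.55 (not called without transgenic replicate 3 or 4 or wild-type replicate 5). Of 19 genes of glycolysis and gluconeogenesis 4 rose and 3 fell (5 and 1 after quantile normalisation). Hk1, Pfkp and Pkm, the forms of most tissues other than hepatocytes, rose by 1.15, 0.87 and 1.59, as did Pfkl, the liver form of phosphofructokinase, by 0.52 (not called after median centring), whereas the hepatocyte form Pklr of pyruvate kinase did not pass (-0.29). The 3 kept probe sets of Pfkl disagreed in sign, with changes from -0.08 to 0.65. The falls were those of Pgk1 (phosphoglycerate kinase) by 0.54, Pygl (liver glycogen phosphorylase) by 0.39 and Ldha (lactate dehydrogenase) by 0.27, of which Pygl and Ldha were not called after quantile normalisation and Ldha also not without transgenic replicate 4 or wild-type replicate 4. Pkm gave 612, 459, 453, 693 and 799 in transgenic livers, against 217, 172, 142, 218 and 186 in wild-type livers.

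The lists of secreted proteins and amino acid enzymes of hepatocytes had small negative medians, and most of their falls were not called after quantile normalisation. Of 19 apolipoprotein and carrier genes 9 fell and Apoa4 rose by 1.40. None fell after quantile normalisation, 11 after median centring and 5 without wild-type replicate 4. The median change of -0.31 came to -0.01 after quantile normalisation. Acute phase genes fell in 7 of 19 cases and none rose, with Saa4 lower by 0.99 and Orm1 by 0.83, and Saa1, whose signals spread from 2767 to 9669 in transgenic and from 4835 to 30088 in wild-type livers, did not pass (-1.20, adjusted p = 0.109). Only 2 acute phase genes fell after quantile normalisation, 4 without transgenic replicate 1 or 4 and 2 without wild-type replicate 4. Complement and coagulation genes fell in 7 of 30 cases, and Pros1, which encodes the anticoagulant protein S, rose by 0.78. After quantile normalisation none fell and 4 rose, and after median centring 12 fell. Urea cycle and amino acid enzymes fell in 6 and rose in 2 of 21 cases. After quantile normalisation 1 fell and 2 rose, after median centring 9 fell and none rose, 3 fell without transgenic replicate 4 or wild-type replicate 5, and none rose without transgenic replicate 1 or 2. The medians of the last 2 lists, -0.20 and -0.18, turned to 0.04 and 0.10 after quantile normalisation. Of 17 hepatocyte transcription factors 2 fell (Nr0b2, -1.01, not called without transgenic replicate 4, and Esrrg, -1.41, not called in 6 of the 10 fits that left out 1 array and 0.01 on its other probe set), and Cebpa (-0.15) did not pass.

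Among the lists of basal cell functions, the proteasome held the most genes that fell. Of 25 measured subunits of this protease of ubiquitinated proteins 18 fell and none rose, where 7.87% of all genes fell, and the signals of 16 did not overlap between groups, where 16.1% of all genes did not. The falls were small and even: Psma5 gave 7342, 6924, 6189, 6864 and 8440.4 in transgenic livers, against 12595, 9484, 10708, 11396 and 13151 in wild-type livers (log2 change -0.68 ± 0.10, adjusted p = 8.83e-06). Psmd11, a subunit of the regulatory lid, gave 8161, 9497, 7603, 9053 and 10494 in transgenic livers, against 14438, 12249, 12981, 12109.5 and 16048 in wild-type livers. No transgenic liver reached a wild-type one in either gene on the probe sets used. The 6 kept probe sets of Psmd11 had changes from -0.78 to -0.03. The falls covered the alpha ring (Psma2 -0.40, Psma3 -0.40), the beta ring (Psmb1 -0.41, Psmb3 -0.64) and the regulatory particle (Psmc1 -0.49, Psmc2 -0.54, Psmd1 -0.45). The subunits Psmb8, Psmb9 and Psmb10, which replace catalytic subunits in the immunoproteasome, had changes of 0.36, 0.32 and 0.28 without a call, although Psmb10 passed without wild-type replicate 4. The median of the list was -0.38, -0.51 after median centring and -0.28 after quantile normalisation, with 14 subunits lower in the last. Leaving out any 1 of the 10 arrays left 17 to 19 lower.

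**Figure D4:**
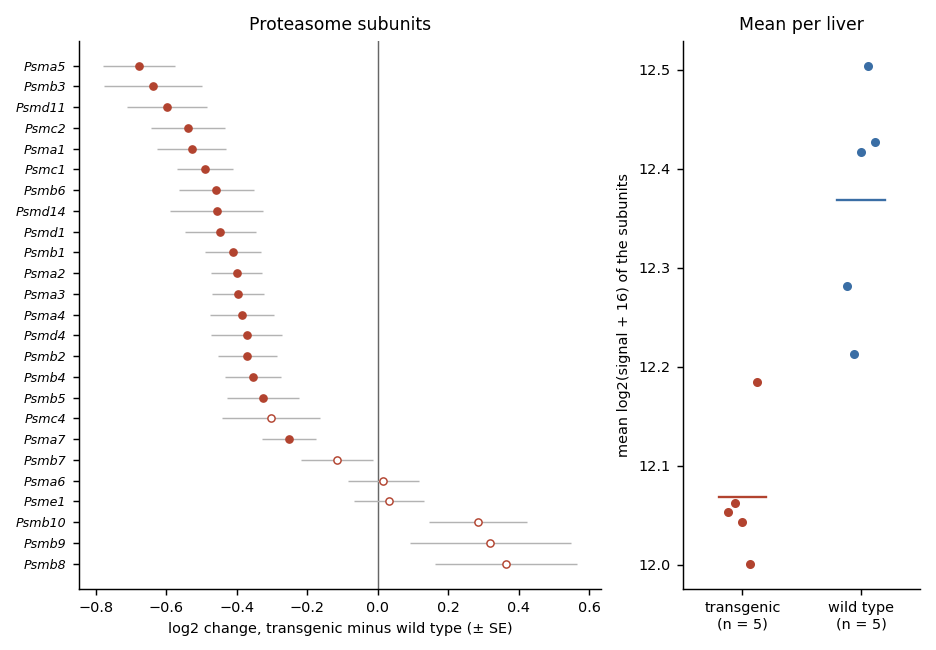
Left, log2 change (transgenic minus wild type, ± moderated SE, 5 and 5 livers) of each proteasome subunit, with filled points for those that passed. Right, mean log2 signal over the 25 subunits in each liver, transgenic to the left of wild type, where all transgenic values lie below all wild-type values.

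As an example of a promoter of this group, the window of Psmb6 (chr11:70525107-70525406, plus strand, RefSeq, GRCm38.p6) is given because it holds, in capitals, TGACNNNGC, the core of the antioxidant response element that NRF factors bind.
Psmb6: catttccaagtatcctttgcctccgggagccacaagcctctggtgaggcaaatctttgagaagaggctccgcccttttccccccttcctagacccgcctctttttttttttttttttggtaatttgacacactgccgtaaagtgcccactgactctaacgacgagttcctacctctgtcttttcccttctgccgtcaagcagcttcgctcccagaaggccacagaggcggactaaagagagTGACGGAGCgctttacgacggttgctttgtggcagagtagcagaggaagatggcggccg
On either strand this core was in 2 of 22 proteasome windows (9.09%), against 14.6% of the windows of tested genes. Psmb6 itself fell by 0.46 ± 0.11.

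Other basal functions moved less. Respiratory chain subunits fell in 10 of 27 cases, with Ndufb3 (complex I) lower by 0.60 and Cox5a (complex IV) by 0.40 (Cox5a not called after quantile normalisation), but 2 fell after quantile normalisation and 16 after median centring, and the median of -0.23 came to -0.01 after quantile normalisation. Of 21 genes of the endoplasmic reticulum stress response 8 fell and none rose (5 fell without transgenic replicate 2). They included the chaperone gene Canx (calnexin) by 0.45, the transcription factor gene Xbp1 by 0.48 (not called after quantile normalisation) and Edem1, which acts in the disposal of misfolded glycoproteins, by 0.41. The chaperone gene Hspa5 (BiP) fell by 0.45 with overlapping groups (not called without transgenic replicate 1 or 2 or wild-type replicate 4), and Ddit3 (CHOP) had a change of 0.29 and did not pass. Lysosomal genes rose in 8 of 19 cases, among them Hexa by 0.72, Ctss by 0.80 and Laptm5 by 1.02, the last 2 being genes of leukocytes. After median centring 4 lysosomal genes rose and 3 fell, and after quantile normalisation 11 rose. None of 12 ribosomal protein genes and none of 14 clock genes was called, but 6 ribosomal genes rose after quantile normalisation and 2 fell after median centring.

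**Figure D5:**
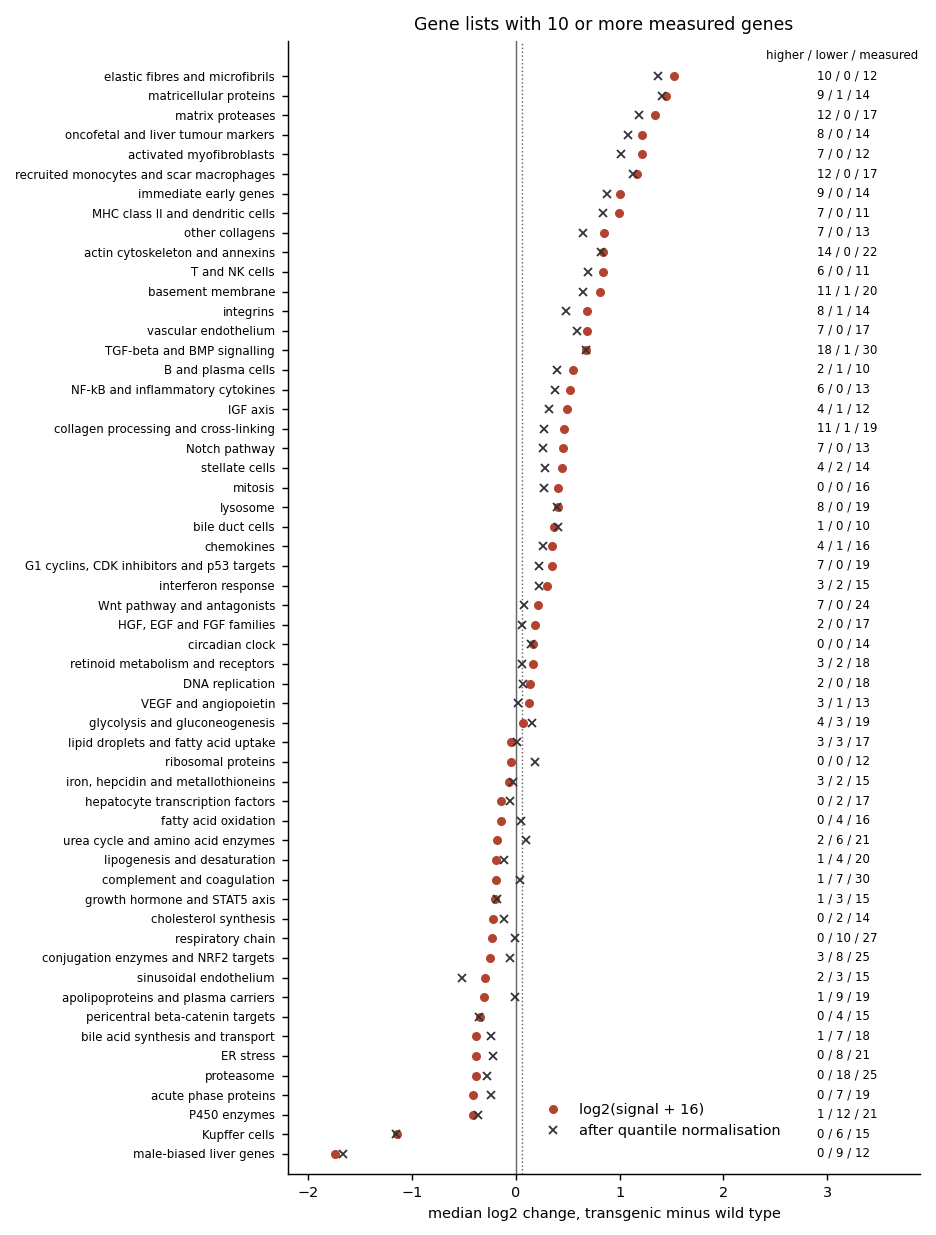
For each of the 56 gene lists with 10 or more measured genes, the median log2 change of its measured genes (points, transgenic minus wild type, on log2 of signal plus 16) and the same after quantile normalisation (crosses), with the dotted line at the median of all genes and the numbers of genes higher, lower and measured at the right. The lists of elastic fibres, matricellular proteins and matrix proteases lie furthest to the right, and the male-biased and Kupffer cell lists furthest to the left.

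The week 20 difference was set against that of week 48, when 5 transgenic and 4 wild-type livers were measured. The difference between the ages was called in 36 genes (0.275%). None of the proteasome, collagen, Kupffer cell, monocyte and P450 lists held a called difference. With so few calls over all genes, this does not show that these lists changed alike at both ages. Median changes at week 20 and week 48 were -0.38 and -0.05 for the proteasome and -1.145 and 0.045 for Kupffer cells. They were 2.59 and 1.67 for fibrillar collagens, 1.16 and 1.69 for recruited monocytes, and -0.42 and -0.61 for P450 enzymes. Crispld2 had a change of 6.04 at week 20 and 3.75 at week 48, a called difference of -2.29 ± 0.44 (adjusted p = 0.0139). The change of Tns1, a focal adhesion protein, was 2.24 at week 20 and 0.21 at week 48, a difference of -2.03 (adjusted p = 0.00794). The CDK inhibitor Cdkn2c had changes of 0.90 and 2.10, a difference of 1.21 (adjusted p = 0.0173). The count of called differences itself lay between 12 and 66 when 1 array was left out. Clec4f had a change of -3.16 at week 20 and -0.80 at week 48, a difference of 2.36 ± 0.91 that did not pass (adjusted p = 0.263).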

How the data were processed

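RNA of the 10 livers was measured on 1 array each. The deposited intensities are linear signals. The authors' software was MAS5, as listed (with no version) in the submitters' processing notes, and the 2% trimmed mean of every array lay between 500.003 and 500.004. Signals were taken as log2(signal + 16). Probe sets in the upper 60% by mean over the 34 arrays were used, and a gene was read from the brightest of its probe sets that name 1 symbol only, which left 13099 genes. Other probe sets of a gene can differ, and are given where those of a named and called gene disagree in sign. Where they differ in size alone they are given for some genes. Further called genes had a kept probe set of much smaller change, among them Nfkb2 (0.40), Tmsb10 (0.30), Cx3cl1 (0.605), Canx (-0.075) and Cox5a (-0.09). All 7 groups of the series entered 1 limma 3.58.1 fit in R 4.3.3 (lmFit, eBayes with an intensity trend), from which the week 20 contrast and its difference from week 48 were taken, with Benjamini-Hochberg adjustment over all genes and errors as moderated SE. The code was checked on simulated arrays with known changes. Alternatives were offsets of 1 and 64, other filters, quantile normalisation, median centring, averaged probe sets, the compared groups alone, the replicate number as a block, no trend, and each array left out.

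The members and the 73 gene lists were chosen with earlier results of these data known. Named were a panel of 16 genes, the largest rises and falls without overlap (unnamed clones and Gm, LOC and Rik genes left out), list members of smallest p, the genes of smallest p for the age difference, and further members where a sentence about a list needed them. Lists share some genes. No duplicated array was found, since the highest correlation between arrays was 0.977. Arrays of the same replicate number did not deviate together (r = -0.04 to 0.11), so no pairing by number was seen. Such weak correlations cannot settle whether the numbers mark a shared step or origin. The number of arrays limits the precision. Promoter windows were read from a RefSeq table of GRCm38.p6, in which 10565 of the tested genes were found.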

Additional observations from a re-analysis of the deposited data

Results flagged for a closer look

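In some genes 1 array lay apart from the other 4 of its group by Dixon's test on log2 signals, where the gap to the nearest array is given as a share of the group's range. Of 76 groups of 5 arrays tested 6 were marked, and chance marks about 1 in 20. Transgenic replicate 5 stood above the other transgenic livers in Cpa1 (0.962), and transgenic replicate 4 below them in Clec4g (0.762). Wild-type replicate 3 stood below the other wild-type livers in Colec10 (0.831), Dcn (0.715) and Lrat (0.798), genes of mesenchymal cells, and wild-type replicate 4 above them in Clec4f (0.762). Without wild-type replicate 3 the log2 change was -3.69 for Colec10 and 0.98 for Dcn, and both were still called.

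In 3 named genes the effect of the transgene differed between the ages by a test of the difference itself (limma). The difference of log2 changes, week 48 minus week 20, was 1.21 for Cdkn2c, -2.29 for Crispld2 and -2.03 for Tns1. No explanation of these values was tested.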

How the results depend on the processing

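Counts over all genes at week 20 stayed within 1.5 times of those reported under all alternatives but 2: median centring raised the genes that fell to 1619, and an offset of 64 lowered the genes changed at least 2-fold to 610. Quantile normalisation gave 1522 rises and 1263 falls, which made 54.6% of calls rises, against 46.7% after median centring and 66.8% as reported. With the replicate number as a block the counts were 1782 and 727. No pairing by number was seen, but whether the numbers mark a shared step was not tested, so the reason for calls lost there is not known. Named genes were in part chosen for a small p or a large change in these data, so their calls do not stand for all calls. Of 219 named genes that were called, 191 were called in the same direction under every alternative, and none of the others turned its sign with a call. Quantile normalisation ended 16 of these calls, averaged probe sets 9 and the block 10. Of the 48 named genes that were not called, 25 changed sign in some alternative. Counts within gene lists moved more. Of 47 counts of 4 or more genes called in 1 direction, 19 moved by over 1.5 times in some alternative: 11 after quantile normalisation, 5 after median centring, 4 with the block, 2 in the upper 40% of probe sets (rises of T and NK cell genes to 2 and of Wnt genes to 4, where fewer genes are tested), 1 with averaged probe sets and 10 without 1 array. Of 43 smaller counts above 0, 32 moved so in some alternative. Without transgenic replicate 5 the count of called genes moved by over 1.5 times in 3 of 73 gene lists: DNA replication (1 in place of 2), HGF and related growth factors (1 in place of 2), iron and metallothioneins (3 in place of 5).

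The difference between the ages was less stable than the week 20 contrast. Against 36 called genes (18 higher and 18 lower), averaged probe sets gave 57 (37 lower), median centring 60 (55 higher and 5 lower), no filter 20 (8 higher), and the block 30 lower. Leaving out 1 array gave 12 to 66 calls, 5 to 30 higher and 6 to 36 lower, with the most calls without wild-type week 20 replicate 2 and the fewest without transgenic week 20 replicate 2. The cause was not tested.

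Signals at or under the array medians limit the precision of changes such as those of Crispld2, Svep1 and Col1a1 in wild type, whose size depends on the offset.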
